A study of Drosophila melanogaster with 24 samples.

Results

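The transcripts described here are those whose mean level in the Drosophila wing was higher at every stage than at the stage before, from the late larval disc to the differentiating pupal wing. They were chosen by their stage means on the log2 scale: the mean had to be higher at each of 5 steps, the rise from L3 to 36 h APF had to be at least 2 (a 4-fold increase), and no single step could make up more than 50% of that rise. Of the 15473 transcripts on the array, 135 had a higher mean at every stage, 56 of these also rose by at least 2, and 28 met all 3 conditions. The climb, its size and the spread of its steps were thus used to choose these transcripts and are given below as a description.

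Wings were dissected from untreated flies of genotype w1118;+;+ (no allele other than the white-eye mutation w1118) at the wandering stage of the last larval instar (L3) and after puparium formation (APF), when the pupae had aged 2, 6, 18, 24 or 36 h. Each sample held RNA of 10 wings, and each stage had 4 independently obtained samples, except for 36 h APF with 3. A further array, on which 36 h samples B and D had been combined, was not used to choose the transcripts. The L3, 2 h and 6 h samples still contained the presumptive notum, the part of the disc that forms the back of the thorax, and the later samples did not, so that stage and tissue content cannot be told apart at the step from 6 to 18 h. In such whole-tissue RNA, more cells that express a transcript and more of it per cell cannot be told apart either.

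The wing grows in the larva as a flat epithelial sac, the imaginal disc. At puparium formation a pulse of the steroid hormone ecdysone starts metamorphosis: the disc everts and elongates, its dorsal and ventral surfaces meet, and the cells later stop dividing, secrete cuticle and each build an actin-based hair. Between the larval and the pupal peak of ecdysone, many wing genes are known to be switched on and off again.

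The deposited values name transcripts by FlyBase transcript identifiers. The gene table at hand tied 17 of the 15473 transcripts to 1 gene and 27 to several, and none of the 28 was among them. The climbing transcripts are therefore named by identifier only, without a gene or a role, and none of the marker genes of wing or other cell types could be read on these arrays by name, so the labelled tissue was not checked. FBtr0083306 (largest rise) and FBtr0072490 (lowest share of the rise in its largest step) are named by rule, and the other identifiers were chosen after their values were seen.

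Among the arrays, the median log2 intensity lay between 9.28 and 9.58. Samples C of 18 h and B of 24 h APF, which lay on the same slide, stood apart from the rest of their stages: 11.5% and 11.7% of all transcripts lay more than 2-fold away from the other samples' mean there, against 0.9% to 8.6% for the other samples of these stages. The 3 samples of 36 h APF also differed widely, at 7.2% to 10.3%. Sample B of 6 h APF had 6.4%, against 1.3% to 3.3% for the other samples of 6 h. Without 18 h C, 24 h B and 6 h B, 24 transcripts met the rule, 20 of them among the 28. The stage field of the labels differed from the title for 14 arrays, and the titles were used.

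The climb was long in some transcripts and short in most. The median rise from L3 to 36 h APF was 2.63 on the log2 scale, 17 of the 28 rose by less than 3, 7 by 3 to 6 and 4 by more than 6. In linear terms the increases ran from 4.0-fold to 176-fold. The median log2 level of the 28 was 7.19 at L3, 8.35 at 2 h, 8.64 at 6 h, 9.29 at 18 h, 9.86 at 24 h and 10.48 at 36 h APF. Over the same stages the median of all transcripts stayed between 9.35 and 9.50. The authors had normalized all arrays together by quantiles, which by itself holds that median nearly level. Most of the 28 thus began in the dim part of the array, with 3 above the median of the array at L3 and 21 above it at 36 h APF. Their median percentile among all transcripts was 32.7 at L3 and 59.4 at 36 h APF.

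**Figure D1:**
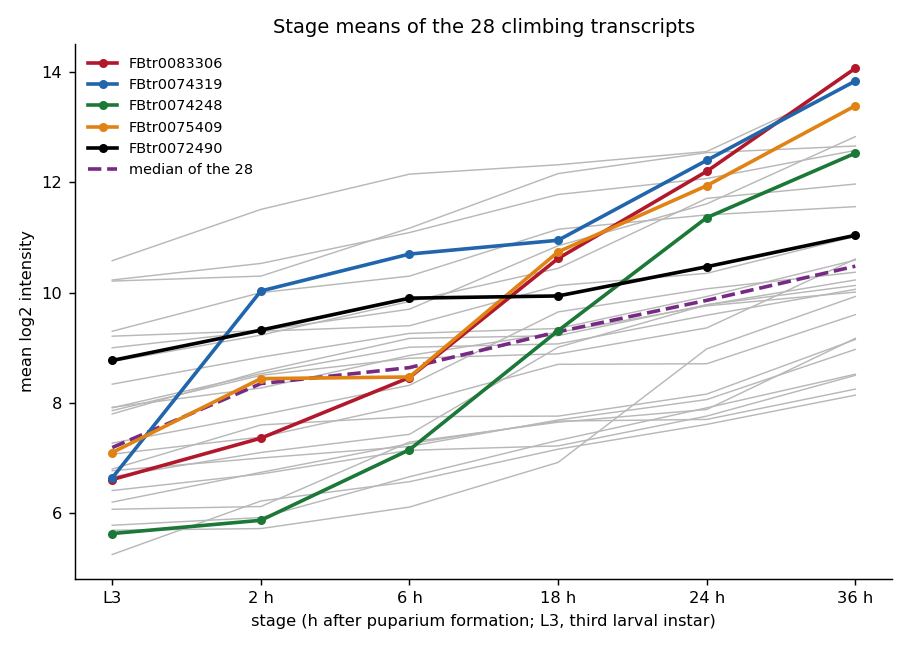
Mean log2 intensity (vertical axis) of each of the 28 transcripts at the 6 stages (horizontal axis, not to scale in hours). The coloured lines are the 4 transcripts with the largest rises and FBtr0072490, which had the lowest share of its rise in the largest step, and the dashed line is the median of the 28, from 7.19 at L3 to 10.48 at 36 h APF.

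The spread between samples had a higher median in these transcripts than over the array up to 24 h APF, and hardly so at 36 h. The median SD within a stage was 0.25 at L3 and 0.36 at 24 h APF for the 28, against 0.15 and 0.29 for all transcripts, and it was 0.29 against 0.28 at 36 h APF. Transcripts on this array had 3 to 5 probes, and of the 28, 17 had 5 and 11 had 4.

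FBtr0083306 had the largest rise, 7.46, and was a dim transcript at L3 and among the brightest of the wing at 36 h APF (percentiles 26.3 and 94.5). Its log2 level in the 4 samples of L3 was 7.02, 6.41, 6.62 and 6.40. At 2 h APF it was 7.19, 8.13, 7.83 and 6.28, and at 6 h APF 9.26, 7.46, 8.75 and 8.38. Neighbouring stages among these first 3 overlapped. From 18 h on they no longer did, with 10.39, 10.65, 10.68 and 10.78 at 18 h, 11.99, 12.13, 12.40 and 12.27 at 24 h, and 14.17, 14.07 and 13.98 at 36 h APF. The SD was 0.82 at 2 h and 0.09 at 36 h APF (n = 4 and 3), so the late climb of this transcript was far better resolved than the early one. Its steps were 0.75, 1.10, 2.16, 1.57 and 1.88 (SE 0.33 for the first 4 and 0.36 for the last, from limma).

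FBtr0074319 reached a similar level by another route. It stood between 6.35 and 6.97 in the 4 samples of L3 and at 9.70, 10.53, 11.27 and 8.64 at 2 h APF, so that 47.1% of its rise of 7.2 fell before 2 h APF. The samples then ran together: 10.35, 10.97, 9.95 and 11.51 at 6 h and 10.83, 11.63, 10.69 and 10.65 at 18 h APF. A second climb followed, to between 12.13 and 12.58 at 24 h and to 14.02, 13.86 and 13.65 at 36 h APF. Neither the samples of 2 and 6 h nor those of 6 and 18 h were separated, and the step of 0.25 from 6 to 18 h was the smallest of this transcript.

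FBtr0074248 climbed mainly between 6 and 24 h APF. Its samples lay between 5.32 and 5.84 at L3 and between 5.54 and 6.28 at 2 h APF, at the dim end of the array. They then moved to 6.84, 6.84, 7.77 and 7.16 at 6 h, to 9.83, 10.00, 9.18 and 8.23 at 18 h and to 10.43, 11.69, 11.92 and 11.43 at 24 h APF. The 3 samples of 36 h APF were within 0.1 of each other, at 12.57, 12.49 and 12.54. All steps but the first separated every sample of the later stage from every sample of the earlier one.

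FBtr0075409 was the fourth of the transcripts that rose by more than 6. Its 2 h and 6 h samples could not be ordered, with 8.19, 8.95, 8.47 and 8.14 against 8.75, 8.71, 7.85 and 8.59, and its mean was higher by 0.04 only. Its other 4 steps, of 1.33, 2.27, 1.20 and 1.45, left no overlap between the samples.

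FBtr0072490 had the lowest share of its rise in the largest step, 25.5% of 2.27. Its stage means were 8.77, 9.32, 9.90, 9.94, 10.47 and 11.04. Even so, the step from 6 to 18 h was 0.04, against SDs of 0.25 and 0.20 at these stages, so that its course held a pause there. The means of FBtr0088633 had no step so close to 0, with steps of 0.35, 0.59, 0.42, 0.49 and 0.25. Only 1 of these steps was free of overlap between the samples, however. Its sample D of 36 h APF, at 9.37, lay below all samples of 24 h, at 9.61 to 10.04. On the pooled array it stood at 8.95, below its 24 h mean of 9.76. The 36 h samples of FBtr0072490 were 10.87, 11.64 and 10.63.

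A small climb with little noise was seen in FBtr0088146, which rose by 2.35 from an already high level. Its samples lay between 10.18 and 10.26 at L3 and between 10.21 and 10.77 at 2 h APF. They then lay between 10.97 and 11.22 at 6 h, 11.70 and 11.85 at 18 h, 11.96 and 12.15 at 24 h, and 12.45 and 12.74 at 36 h APF. Each of the last 4 steps was free of overlap, although the largest of them was 0.69.

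FBtr0086340, the brightest of the 28 at L3, climbed at both ends of the series and little in between. It lay at 10.51, 10.47, 10.68 and 10.67 at L3, at 11.52, 11.61, 11.87 and 11.05 at 2 h and at 12, 12.19, 12.21 and 12.19 at 6 h APF. Between 6 and 24 h APF its mean went from 12.15 to 12.56. The 36 h samples then lay at 13.70, 14.06 and 13.69, a step of 1.25.

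In FBtr0073230, FBtr0087633 and FBtr0074336 the last step of the means was smaller than the one before. FBtr0073230 made 44.3% and FBtr0087633 42.6% of its rise between 6 and 18 h APF, where the notum was also lost from the samples. FBtr0074336 made 39.5% of its rise between 18 and 24 h APF. The last step was 0.45, 0.30 and 0.26 in the 3 transcripts, and the samples of 24 and 36 h APF overlapped in each. In FBtr0073230 sample C of 36 h stood at 10.96, while B and D had a mean of 9.86, against 9.78 at 24 h. The pooled array was below the 24 h mean in FBtr0073230 (9.40 against 9.78) and FBtr0087633 (9.44 against 10.07). It was above that mean in FBtr0074336 (11.99 against 11.71).

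**Figure D2:**
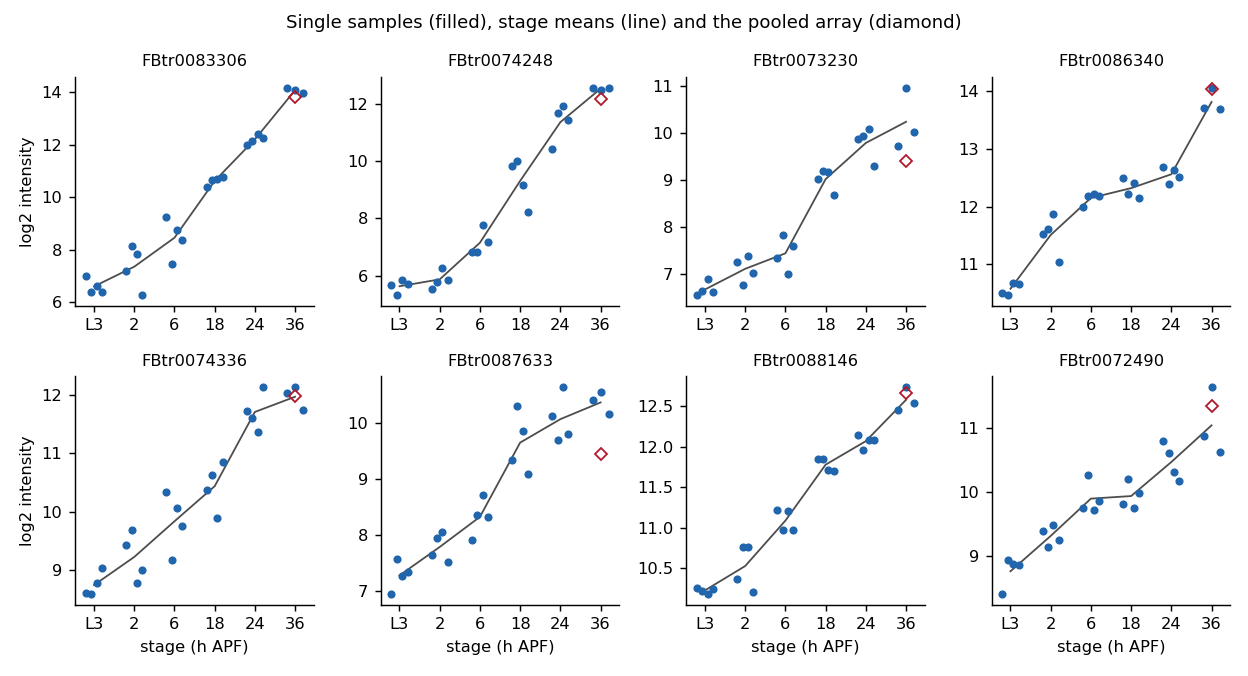
Log2 intensity (vertical axes, which differ between panels and do not start at 0) by stage in h APF (horizontal axes) for 7 transcripts that met the rule whichever array was left out and in the 8 other settings that kept its limits, and for FBtr0072490. Filled points are single samples, the line joins stage means, and the open diamond is the pooled array of 36 h APF, which lay below all 3 samples of that stage in FBtr0083306 (13.81), FBtr0074248 (12.18), FBtr0073230 (9.40) and FBtr0087633 (9.44).

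Which step was the largest differed between the transcripts, and by the rule none made up more than 50% of the rise. The largest step was that from 24 to 36 h APF in 10 of them, from 6 to 18 h in 9, from L3 to 2 h in 4, from 2 to 6 h in 3 and from 18 to 24 h in 2. The median sizes of the 5 steps were closer than these counts, at 0.48, 0.53, 0.59, 0.50 and 0.66 in the order of the stages. The steps span unequal times, of 4, 12, 6 and 12 h after 2 h APF, and the time between L3 and 2 h was not used. Divided by these hours, the median step was 0.133 per h from 2 to 6 h, 0.050 from 6 to 18 h, 0.084 from 18 to 24 h and 0.055 from 24 to 36 h APF. Per hour, the steepest step was that from 2 to 6 h in 17 of the 28. This was the shortest of the intervals and the median steps were close in size, so the order per h largely follows from the division.

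**Figure D3:**
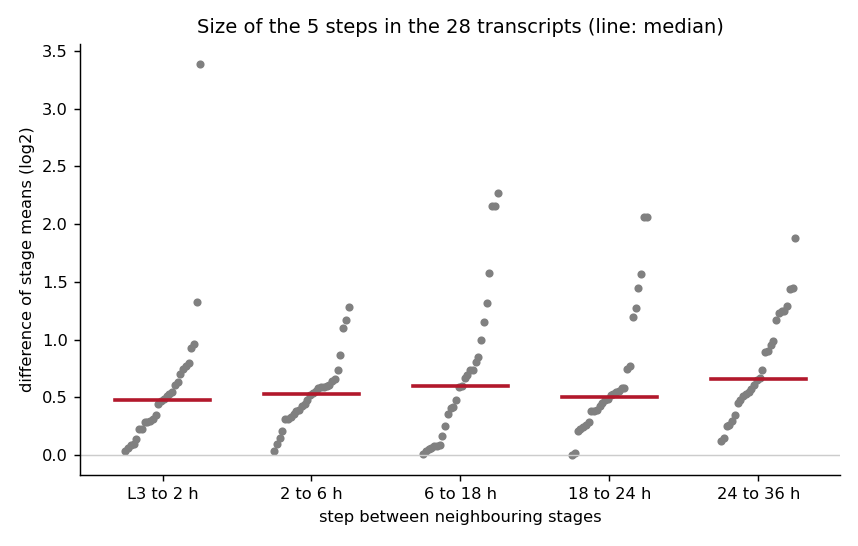
Difference between neighbouring stage means (log2, vertical axis) for each of the 5 steps (horizontal axis). Each point is 1 of the 28 transcripts, ordered by size within a step, and the lines are the medians, from 0.48 to 0.66.

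By 6 h APF the 28 had made a median of 36.1% of their rise (9.9% to 58.7%), and a median of 45.0% came after 18 h. In 4 of them (FBtr0074319, FBtr0072488, FBtr0071262 and FBtr0100224) more than 50% came by 6 h APF. In 7 more than 50% came after 18 h, with FBtr0086609 the latest at 71.0%. The sum of the steps other than that from 6 to 18 h, where the tissue content of the samples changed, was at least 2 in 18 of the 28 and 1.28 at the lowest, in FBtr0070195. As no step could exceed 50% of a rise of at least 2, the rule itself set a floor under this sum. The part of tissue content in the climb was not tested.

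Seen against the rest of the array, a steady climb was an uncommon way to rise. A rise of at least 2 from L3 to 36 h APF was found in 1144 transcripts. In 622 of these the mean fell from 6 to 18 h, where the notum was lost from the samples, against 110 to 464 at the other steps. The part of tissue content in these falls was not tested. Another 11 transcripts met the limits on rise and largest step and had a smallest step between -0.1 and 0. Among the 56 with a higher mean at every stage, 28 were left out because 1 step made up more than 50% of the rise, and that step was the one from 24 to 36 h APF in 14, from 6 to 18 h in 8, from 18 to 24 h in 5 and from 2 to 6 h in 1. The mirror rule, for transcripts that declined at every stage, found 33, and in 22 of these the largest step was that from 24 to 36 h APF, against 10 of the 28. This difference between the sets was not tested, since the same means chose both.

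The rule drew sharp lines through gradual values. FBtr0070195 was just inside on the rise, at 2.011, and FBtr0089659 just outside, at 1.982. FBtr0086609 was just inside on the largest step, at 48.6% of the rise, and FBtr0073700 just outside, at 50.3%. FBtr0072764 was inside with a step of 0.002 from 18 to 24 h APF, and FBtr0086298 outside with a smallest step of -0.0102. In 13 of the 28 the smallest step was under 0.1.

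How far single steps stood out from the spread between samples was asked with limma, fitted to all transcripts with adjustment by Benjamini-Hochberg and a threshold of 0.05. As the same stage means selected the 28, the counts below are a description, and nothing is read from their distance to the background. From L3 to 2 h APF, 4 of the 28 were called higher, against 10.9% of all transcripts. From 2 to 6 h the count was 9 (15% of all), from 6 to 18 h 10 (22.6%), from 18 to 24 h 8 (6.64%) and from 24 to 36 h APF 14 (20.5%). For 36 h APF against L3, all 28 were called higher, as were 30% of all transcripts. Of the 140 single steps in the 28 transcripts, 45 were thus called. No transcript had all 5 steps called, FBtr0083306, FBtr0074248 and FBtr0075409 had 4, and 7 transcripts had none.

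The order of the samples was also read without a model, which separated more of the 28 than limma called at the first step. Every sample of 2 h APF was above every sample of L3 in 10 of the 28 (15.4% of all transcripts). The count was 10 (15.6%) from 2 to 6 h, 10 (21.6%) from 6 to 18 h, 11 (8.57%) from 18 to 24 h and 12 (14.7%) from 24 to 36 h APF. In 3 of the 28 (FBtr0070049, FBtr0071262 and FBtr0070195) neighbouring stages overlapped at every step, and in none were all 5 steps free of overlap. Every 36 h sample was above every L3 sample in all 28, as in 30.8% of all transcripts. The rule had already required a rise of at least 2 between the means of these samples.

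Samples that the choice had not used were then examined. Each array was left out in turn, the rule was applied to the rest, and the left-out value was set against the means of the stages before and after. Over the 16 arrays from 2 to 24 h APF, 323 of 461 values (70.1%) lay between the neighbouring means. The share for single arrays ran from 51.5% for sample B of 6 h to 90.9% for sample B of 24 h APF, with a median of 72.4%. For all transcripts it ran from 11.5% to 24.3%. The latter is a level over any order and distance of the neighbouring means, whereas the transcripts chosen had ordered means by choice, so the 2 shares do not start from the same place. Of the values on the 19 arrays after L3, 449 of 551 (81.5%) lay above the mean of the stage before, against a mean of 48.8% over all transcripts. Here too the chosen transcripts had rising means by choice, while the 48.8% covers rising and falling ones, so the 2 shares are not alike.

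**Figure D4:**
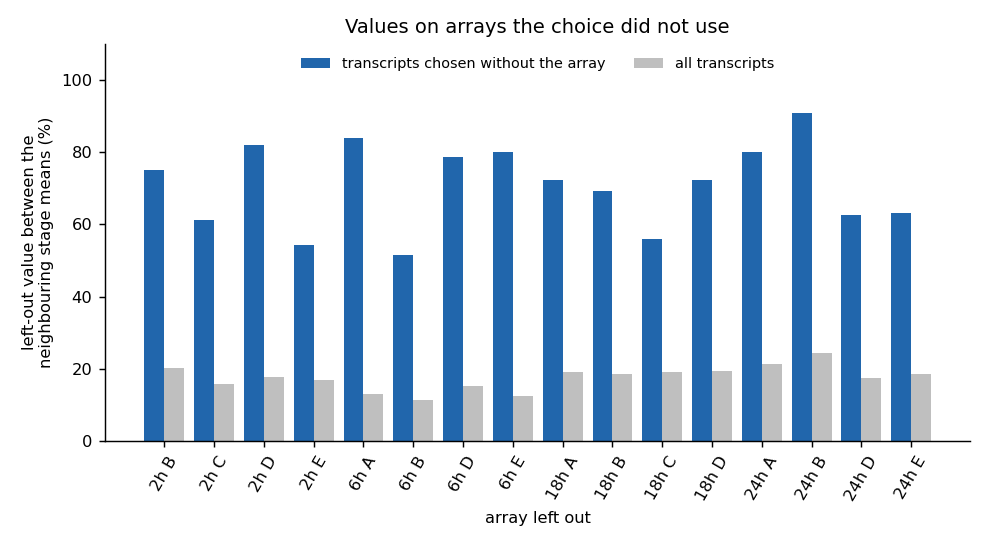
Share of left-out values that lay between the means of the stages before and after (vertical axis, percent) for each of the 16 arrays from 2 to 24 h APF (horizontal axis). Blue bars are the transcripts chosen without that array, from 51.5% to 90.9%, and grey bars all 15473 transcripts, from 11.5% to 24.3%.

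The pooled array of 36 h APF was another measurement that the choice had not used, although its RNA came from samples B and D, which had been used. It was above every L3 sample in all 28 transcripts, against 44.6% of all transcripts. It was above the 24 h mean in 22 of the 28 (78.6%), against 46.4%, and above every 24 h sample in 18 (64.3%), against 33.3%. The pooled value differed from the mean of B and D by a median of 0.35 in size, and by -1.47 to 0.83 in the 28. In 12 of the 28 (42.9%) it fell inside the range of the 3 single samples, close to the 45.3% of all transcripts. In the other 6 of the 28 the pooled value was at or below the 24 h mean, so that the last step was not seen again there. These were FBtr0073230, FBtr0087633, FBtr0077726, FBtr0073258, FBtr0100344 and FBtr0088633.

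Stages that shared a slide could be set in order without a comparison between slides (the slide of 1 array was taken from an incomplete number). Each of 6 slides carried 3 or 4 arrays of single samples from different stages. Between 14 of the 28 transcripts (L3, 2 h, 6 h and 18 h on 1 slide) and 24 of the 28 (L3, 2 h, 24 h and 36 h on another) were in full time order within a slide. Over all transcripts this share ran from 3.7% to 15.4%. FBtr0083306, FBtr0072764, FBtr0088146 and FBtr0100224 were higher at the later stage in all 33 pairs of stages that shared a slide, and FBtr0070049 in 22 of 33, the fewest. These arrays had also chosen the transcripts.

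Which transcripts met the rule depended on single arrays. When each of the 23 arrays was left out in turn, the number that met it ran from 22 to 41, and 41 transcripts outside the 28 came in at least once. The lowest numbers were reached without sample 1 of L3 and without sample B of 24 h APF, and the highest without sample 2 of L3. Of the 28, 9 met the rule whichever array was left out. There were 8 other settings that kept the limits of the rule and all transcripts: the pooled array counted as a sample, slide as a block, cyclic loess, array medians set equal, the log2 table as deposited, stage medians in place of means, 100 added to the intensity, and the 3 arrays named above left out together. Of the 9, 7 also met the rule in all of these: FBtr0083306, FBtr0074248, FBtr0073230, FBtr0086340, FBtr0074336, FBtr0087633 and FBtr0088146. FBtr0071262 was the least stable, lost in 7 of the 23.

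**Figure D5:**
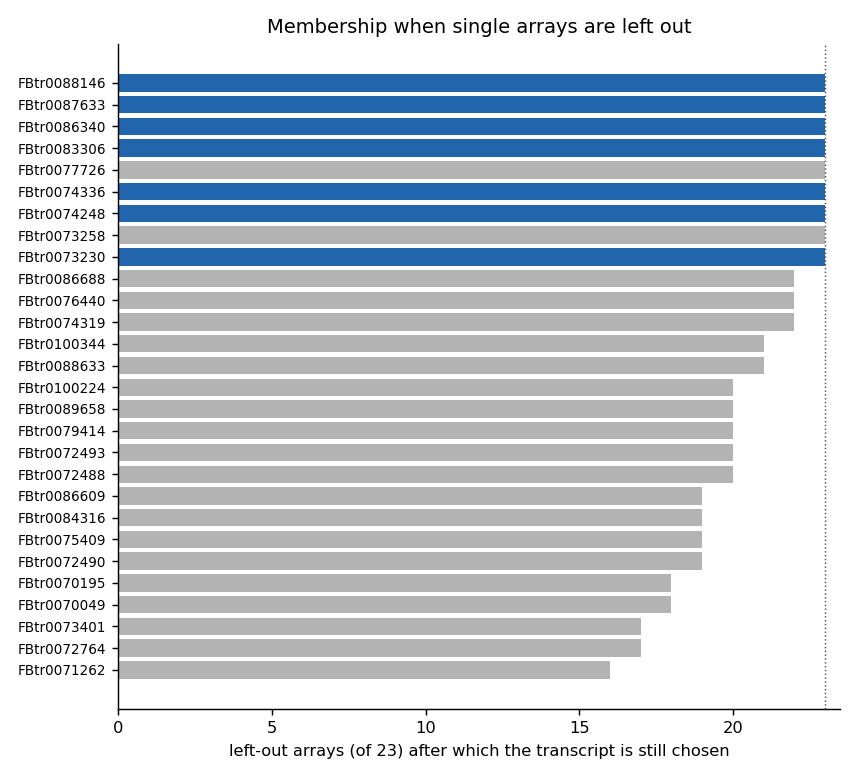
Number of left-out arrays, of 23, after which each of the 28 transcripts (vertical axis) was still chosen (horizontal axis). Blue bars are the 7 transcripts that were also kept in the 8 other settings with the same limits, and the shortest bar is FBtr0071262 at 16.

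Sample 1 of L3 was lower than the other L3 samples in much of the set. It was below their mean in 23 of the 28 and above it in 5 (17.9%), against 37.4% of all transcripts above it. It was the lowest of its stage in 19 of the 28. The median difference was -0.35 in the 28 and -0.06 over all transcripts. A low L3 sample lowers the L3 mean from which the rule measured the rise, so these counts are not independent of the choice. The median of sample 1 of L3 on the array was also the lowest, 9.28. With array medians set equal the median difference in the 28 was -0.18, with 11 of the 28 above, against 68.7% of all transcripts. After cyclic loess it was -0.19, with 7 of the 28 above, against 48.4%. Samples C of 18 h and B of 24 h APF stood apart over the whole array. In them 5 and 3 of the 28 lay more than 2-fold away from the other samples' mean, against 11.5% and 11.7% of all transcripts. The other samples of 18 h had 1 or 2 of the 28 and those of 24 h had 1 each, against 0.9% to 8.6% of all transcripts. Samples B of 6 h and C of 36 h APF had 4 of the 28 each, against 6.4% and 10.3% of all transcripts. Nothing is read from counts this small. For 18 h C and 24 h B the median differences were 0.05 and 0.18, against -0.07 and 0.00 over all transcripts. In these samples 15 and 19 of the 28 lay above that mean, against 43.3% and 50.4% of all transcripts. In the declining set the same samples had medians of -0.36 and -0.32. The part that these samples had in the climb was not tested beyond the counts without them.

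The transcripts shared their course over the stages, as the rule required, and little of their deviations around it. Over the 378 pairs of the 28, the correlation of stage means had a median of 0.96. The correlation of the differences from the stage means, over 23 arrays, had a median of 0.11 (-0.61 to 0.84), and was above 0.7 in 10 pairs. Arrays share their hybridization and normalization, so these values are a description.

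Of these 10 pairs, 5 lay within a set of 4 transcripts: FBtr0072488, FBtr0072490, FBtr0072493 and FBtr0100224. Their 6 pairwise correlations within stages ran from 0.61 to 0.84. Their rises were 2.33, 2.27, 2.25 and 2.15, and in each the step from 6 to 18 h was the smallest, at 0.05, 0.04, 0.09 and 0.06. Sample C of 36 h APF was the highest of its stage in all 4, at 10.78, 11.64, 11.13 and 10.94, against 9.80, 10.87, 10.57 and 9.71 for sample B. The first 3 of the identifiers lie within 5 of each other, but whether the 4 are transcripts of 1 gene or share probes is not given in the sources used here. If they do, the 28 hold fewer independent measurements than their number.

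Apart from FBtr0072488, FBtr0072490 and FBtr0072493, no 2 of the 28 had identifiers within 5 of each other. There were 212 transcripts with identifiers within 5 of one of the 28, counting a transcript once for each of the 28 it lies close to. Of these, 6 were among the 28, and they were FBtr0072488, FBtr0072490 and FBtr0072493, each counted more than once. A rise of at least 1 was found in 70 of the 212. The share of all transcripts with such a rise was not counted, so nothing is read from the 70. Some neighbours outside the 28 had deviations within stages close to those of their member. The correlation was 0.83 for FBtr0086690 with FBtr0086688, 0.81 for FBtr0073402 with FBtr0073401 and 0.80 for FBtr0071258 with FBtr0071262. Others went the other way, such as FBtr0079418 with FBtr0079414 at -0.66. FBtr0089659, next to FBtr0089658 in number, missed the rule only by its rise, and the 2 had stage means that went from 6.96 to 8.94 and from 6.41 to 8.50. Beside FBtr0083306, FBtr0083307 stood at 13.88 at L3 and at 14.41 at 36 h APF, and FBtr0083308 was lower at 36 h than at L3 by 2.32.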

How the data were processed

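Per the labels and the study's methods, amplified RNA was labelled with Cy3 and hybridized to NimbleGen 4-plex expression arrays. The authors normalized all arrays together by quantiles and summarised the probes of a transcript with RMA into a single intensity on a linear scale; neither the RMA version nor the annotation release is stated in the sources. The deposited intensity values ran from 16.8 to 64238 and are not counts, so the number of arrays limits the precision. The deposited log2 table of the whole series was used as an alternative only. Here log2 of the intensity was taken with no further normalization. Stage means over 23 arrays chose the transcripts, and limma 3.58.1 (R 4.3.3; lmFit and eBayes, 1 mean per stage) was fitted to all 15473 transcripts, after a test on simulated data. Named by rule were any transcript tied to a gene, the largest rise and the lowest share of the rise in 1 step. The members and lists were chosen with earlier results of these data known. Samples were independently obtained, so p-values measure the spread between separate lots of wings. Alternatives covered slide, scaling, dim transcripts, rule limits and left-out arrays. No sequences could be matched.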

Additional observations from a re-analysis of the deposited data

Results flagged for a closer look

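Within the stages of 4 samples, 6 of 140 sets of values had 1 sample separated from the others by a gap, as a share of the whole range, above Dixon's critical value. Chance sets apart about 1 in 20 such groups. FBtr0070049 was at 9.73 in sample C of 18 h APF, against 6.85 to 7.30 in the others, and at 6.36 in sample B of 2 h APF, against 7.19 to 7.24. FBtr0073258 was at 6.65 in sample C of 18 h APF, against 7.51 to 7.58. Sample 1 of L3 was the low one in FBtr0086609, at 5.18 against 5.81 to 5.89, and in FBtr0072490, at 8.41 against 8.86 to 8.94. FBtr0086340 was at 12 in sample A of 6 h APF, against 12.19 to 12.21.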

How the results depend on the processing

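The number of transcripts that met the rule, 28, moved with the limits of the rule and with the treatment of dim transcripts. It was 45 with a rise of at least 1.5, 11 with a rise of at least 3, 48 with a largest step of up to 0.6 of the rise and 56 with no limit on the step. It was 15 on log2 of the intensity plus 100, and 11 with dim transcripts (mean log2 below the median of all) left out, which also left 11 to be called higher at 36 h APF than at L3. Leaving out 1 array gave 22 to 41 transcripts and 42 to 51 called steps, against 45, with 28 calls at 36 h against L3 throughout. With slide as a block 32 met the rule (22 of the 28), and with cyclic loess 38 (19 of the 28). Calls from L3 to 2 h APF, 4 as reported, were 7 with slide as a fixed block, after cyclic loess or, as chosen after seeing the data, without 18 h C, 24 h B and 6 h B. They were 11 when only the arrays of L3 and 2 h were fitted. Without sample E of 2 h, calls from 2 to 6 h were 5 in place of 9, and without sample C of 36 h the rise of FBtr0072490 was 1.97. With the replicate letter as a block over the arrays after L3, the last 4 steps had 33 calls, against 39 without the block. The letters did not pair the samples: deviations of same-letter arrays correlated at a median of 0.00 (-0.55 to 0.36). Neither of the 2 named rises changed sign; single steps near 0 can, and FBtr0072764, with a step of 0.002, left the set in 6 of 23 left-out settings. The means of 3 or 4 arrays limit how small a step can be ordered.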
